A study of Mus musculus with 4 samples.

Results

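The transcripts of 9 genes with roles in the adhesion and fusion of myoblasts were followed in cultured muscle stem cells (MuSC) with and without Prmt5. The genes are Mymk, Mymx, Cdh15, Cdh2, Cdon, Boc, Neo1, Jam3 and Myof, listed for their known roles, and all 9 were found among the 20065 genes of the table. Mymk and Mymx, the genes of the fusion machinery itself, lay above both controls in each Prmt5sKO library, 10.7-fold and 13.8-fold by the ratio of group means. For both genes the Prmt5sKO libraries differed widely from each other. Neither gene passed the test, which called 0 of the 16212 genes tested and did not call Prmt5 itself. The receptors Cdon, Boc and Neo1, the cadherins and the ferlin Myof had levels that overlapped between the groups.

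Myoblasts become muscle fibres by leaving the cell cycle, recognising and adhering to each other, and fusing their membranes. Cadherins and Ig-superfamily proteins hold the cells together and signal into them, and the complex of Cdon, Boc and Neo1 with cadherins at the contact site promotes the myogenic programme. Myomaker, encoded by Mymk, and the microprotein myomixer, encoded by Mymx, then drive the membranes through hemifusion and pore formation, and both genes are known as targets of the myogenic transcription factors.

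RNA-seq was made from cultured satellite cells of limb and trunk muscles of adult C57BL/6 mice, with 2 control libraries (Pax7CreERT2/Prmt5+/loxP, with TAM) and 2 Prmt5sKO libraries (Pax7CreERT2/Prmt5loxP/loxP, with TAM). All 4 libraries thus carried CreERT2, a tamoxifen-dependent Cre recombinase expressed from the Pax7 locus of satellite cells, and tamoxifen (TAM), and the controls, which the labels call wild type, kept 1 intact Prmt5 allele. Prmt5 is an arginine methyltransferase whose exon 7 is flanked by loxP sites, and the paper's text describes the hydroxylated form of TAM being added to the cultured cells. The labels do not say whether the 2 libraries of a group came from separate animals, and p-values measure the spread between these libraries only. Levels of the Xist transcript, given below, differed widely within each group, so its 2 libraries were not technical repeats of 1 RNA sample.

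The deposited values are group means, from which whole counts per library were recovered. The libraries are named here by depth, with totals of 14436914 (deeper control), 13240754 (shallower control), 20047430 (deeper Prmt5sKO) and 16190414 (shallower Prmt5sKO) counts. Levels are given as CPM, the count of a gene set relative to the size of its library after scaling by trimmed mean of M-values (TMM). Prmt5 itself was at 141 CPM (deeper) and 180 CPM (shallower) in control, against 15.1 CPM and 12.5 CPM in the knockouts. Pax7 lay between 159 and 227 CPM and Myod1 between 753 and 964 CPM in all 4 libraries, and 11 of 12 satellite cell and myoblast markers were in the table, summing to 3320 to 3724 CPM in control and 3594 to 4415 CPM in Prmt5sKO. The highest sum, in the shallower Prmt5sKO library, held 1994 CPM of Des, against 924 and 776 CPM in control and 891 CPM in the deeper Prmt5sKO library. Of the 10 markers tested, 2 were higher in the shallower than in the deeper Prmt5sKO library. Endothelial markers (5 of 7 in the table) and blood cell markers (5 of 8) each summed to at most 9.97 CPM in any library. Of the fibro-adipogenic markers, whose sum was 433 to 973 CPM in control and 1212 to 1501 CPM in Prmt5sKO, Col3a1 and Gsn made up most, while Pdgfra lay between 1.06 and 2.73 CPM. Smooth muscle and pericyte markers summed to 111 and 200 CPM in control and to 304 and 426 CPM in Prmt5sKO, and Schwann cell markers to 21.4 and 26.8 CPM against 32.5 and 43.7 CPM. Their part in the results was not tested.

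The libraries of a group also differed from each other. The shallower Prmt5sKO library stood apart by markers of differentiated myocytes, which are given beside the fusion genes. Xist, the RNA of the inactive X chromosome, had 537 CPM in the deeper control and 351 CPM in the shallower Prmt5sKO library, against 1.45 CPM in the shallower control and 0.51 CPM in the deeper Prmt5sKO library, so each group held 1 Xist-high library and the part of this difference was not tested. In bulk RNA, more cells of a type and more RNA per cell cannot be told apart.

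Across the whole comparison, 0% of the 16212 genes tested passed the threshold, an adjusted p no larger than 0.05 with a 2-fold change (limma-voom with Benjamini-Hochberg adjustment, smallest adjusted p = 0.193), and 13.0% had an unadjusted p under 0.05. That smallest adjusted p belonged to Prmt5 (log2 fold change -3.52, standard error 0.27), so the test did not call even the deleted gene. None of the 9 adhesion and fusion genes was called, and limma-voom gave 0 of 9 an unadjusted p under 0.05. Limma-trend also called 0 genes of the table, but gave 2 of the 9, Mymk and Mymx, an unadjusted p under 0.05, and scaling by library size alone gave 3, with Jam3 as the other. Both Prmt5sKO libraries lay above both control libraries for 3 of the 9 genes, Mymk, Mymx and Jam3, where this held for 25.2% of all genes tested, and groups without overlap in either direction made up 48.8%. Both lay below for 0 of the 9, where this held for 23.6% of all genes, and the groups overlapped for the other 6. The median log2 fold change of the 9 genes was 0.07, beside 0.02 for all genes tested.

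**Figure D1:**
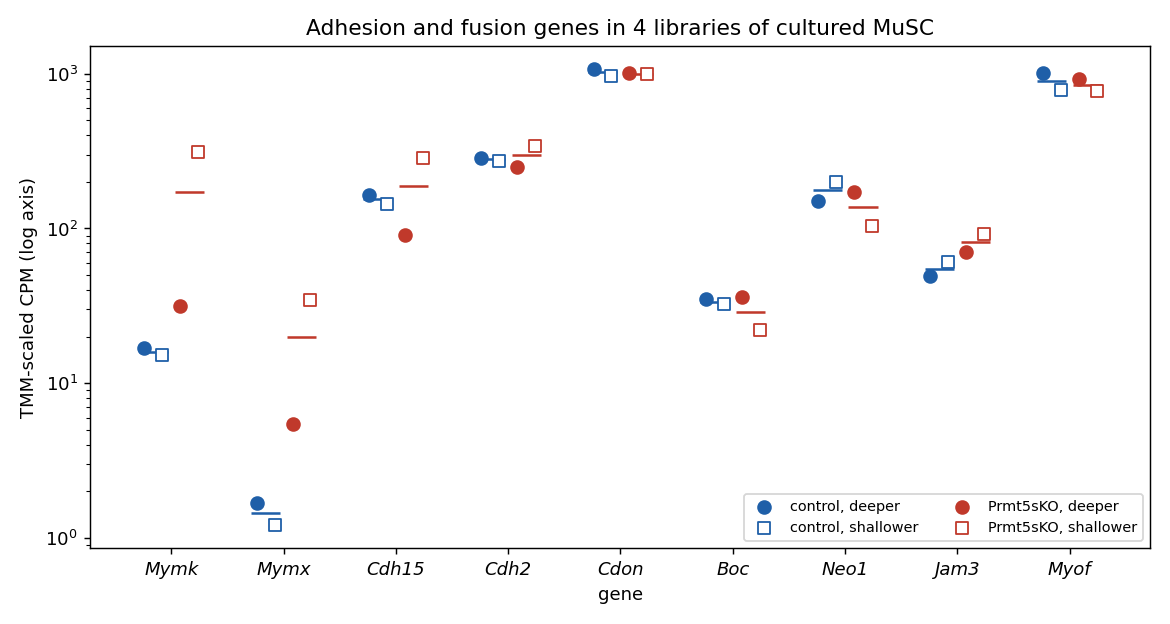
Level of each adhesion and fusion gene in CPM (log axis) in the 4 libraries, with control in blue and Prmt5sKO in red, the deeper library of a group as a filled circle, the shallower as an open square, and the group mean as a bar. Mymk and Mymx lie apart from control in both Prmt5sKO libraries and spread widely between them, whereas Cdon stays between 964 and 1077 CPM in all 4.

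Mymk (ENSMUSG00000009214, chromosome 2, 27061636 to 27072179, minus strand, GRCm38) encodes myomaker, a membrane protein that fusion requires on both partner cells. Its level was 16.9 CPM in the deeper control, 15.1 CPM in the shallower control, 31.5 CPM in the deeper knockout and 311 CPM in the shallower knockout, from 241, 188, 686 and 4996 counts. The control libraries lay close together, the deeper Prmt5sKO library was 1.97-fold above their mean, and the shallower was 19.5-fold above it. The group means were 16.0 ± 1.25 CPM in control and 171 ± 198 CPM in Prmt5sKO (SD, n = 2 each). The fitted log2 fold change was 2.62 with a standard error of 1.23 and a 95% interval from -0.38 to 5.62 (limma-voom, adjusted p = 0.417). The shallower Prmt5sKO library held 9.89-fold more Mymk than the deeper. Taken with its sign, this shallower minus deeper log2 difference was above that of 99.4% of the genes tested. Without the shallower Prmt5sKO library the log2 fold change was 0.97, and without the deeper it was 4.28. Each of these fits keeps a lone Prmt5sKO library and so holds no measure of the spread within Prmt5sKO.

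Mymx (ENSMUSG00000079471, chromosome 17, 45600971 to 45602102, minus strand, GRCm38) encodes myomixer, a short membrane-bound protein that acts with myomaker. Its most frequent annotated reading frame, shared by 3 of its 4 GENCODE transcripts, spans 255 bases at chr17:45601417-45601671 on the minus strand and holds 84 codons before the stop. The longest annotated frame of the gene holds 108 codons. The shared frame is printed whole, with the start and stop codons in capitals, to show how small it is. The longest annotated transcript of Mymx has 804 bases, and the union of exons over its transcripts has 1027.
Mymx reading frame: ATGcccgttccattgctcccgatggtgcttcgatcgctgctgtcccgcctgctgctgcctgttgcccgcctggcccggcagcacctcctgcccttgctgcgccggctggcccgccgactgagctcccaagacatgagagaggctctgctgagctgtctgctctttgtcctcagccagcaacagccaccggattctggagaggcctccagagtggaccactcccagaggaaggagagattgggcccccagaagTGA

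Few reads fell on Mymx, with 24 and 15 in control against 118 and 554 in the knockouts, the deeper library of each group given before the shallower. These are 1.68 CPM (95% exact Poisson interval 1.08 to 2.50) and 1.21 CPM (0.67 to 1.99) in control, intervals that overlap. In Prmt5sKO they are 5.42 CPM (4.49 to 6.49) and 34.5 CPM (31.7 to 37.5), intervals that cover counting error only and do not reach each other or those of control. The deeper Prmt5sKO library was therefore 3.75-fold and the shallower 23.9-fold above the control mean. The group means were 1.44 ± 0.336 and 19.98 ± 20.6 CPM (SD, n = 2 each), and the fitted log2 fold change was 3.08 with a standard error of 1.53 and a 95% interval from -0.64 to 6.81 (limma-voom, adjusted p = 0.435). Without the shallower Prmt5sKO library the log2 fold change was 1.88, and without the deeper it was 4.55. These fits too keep a lone Prmt5sKO library and hold no measure of the spread within Prmt5sKO.

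The difference between the Prmt5sKO libraries was shared by markers of differentiated myocytes. Myog, the transcription factor that marks entry into differentiation, stood at 89.0 CPM (deeper) and 73.7 CPM (shallower) in control and at 230 CPM and 1209 CPM in Prmt5sKO. Its fitted difference was 2.72 on the log2 scale (standard error 0.71, limma-voom, adjusted p = 0.276). All 18 markers of a list of myocyte genes, mainly sarcomeric, were higher in the shallower than in the deeper Prmt5sKO library, with a median log2 difference of 3.65. The summed level of the list was 3899 and 6555 CPM in control, and 3759 (deeper) and 30288 CPM (shallower) in Prmt5sKO. The median log2 difference of the 18 markers from the control mean was 0.74 for the deeper knockout and 4.78 for the shallower. The groups of 13 of the 18 did not overlap, all higher in Prmt5sKO, where this held for 25.2% of all genes tested. In control the sum rested largely on Ttn, the giant sarcomeric protein titin, with 2427 and 5580.4 CPM. Ttn had 1762 CPM (deeper) and 10599.6 CPM (shallower) in Prmt5sKO. Without Ttn the other 17 markers summed to 1472 and 974 CPM in control, and to 1997 CPM (deeper) and 19689 CPM (shallower) in Prmt5sKO. The part of the myocyte markers in the levels of Mymk and Mymx was not tested.

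Relative to Myog the fusion genes moved less. Mymk CPM amounted to 19.0% of Myog CPM in the deeper control, 20.5% in the shallower control, 13.7% in the deeper knockout and 25.8% in the shallower knockout, so the Prmt5sKO libraries lay on either side of control. For Mymx the same ratio was 1.89% and 1.64% in control and 2.36% and 2.86% in Prmt5sKO, higher in both Prmt5sKO libraries. Per kb of exon, Mymx stood at 14.7% and 11.7% of Mymk in control and at 25.3% and 16.3% in Prmt5sKO. These ratios have 2 values a group and were not tested.

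**Figure D2:**
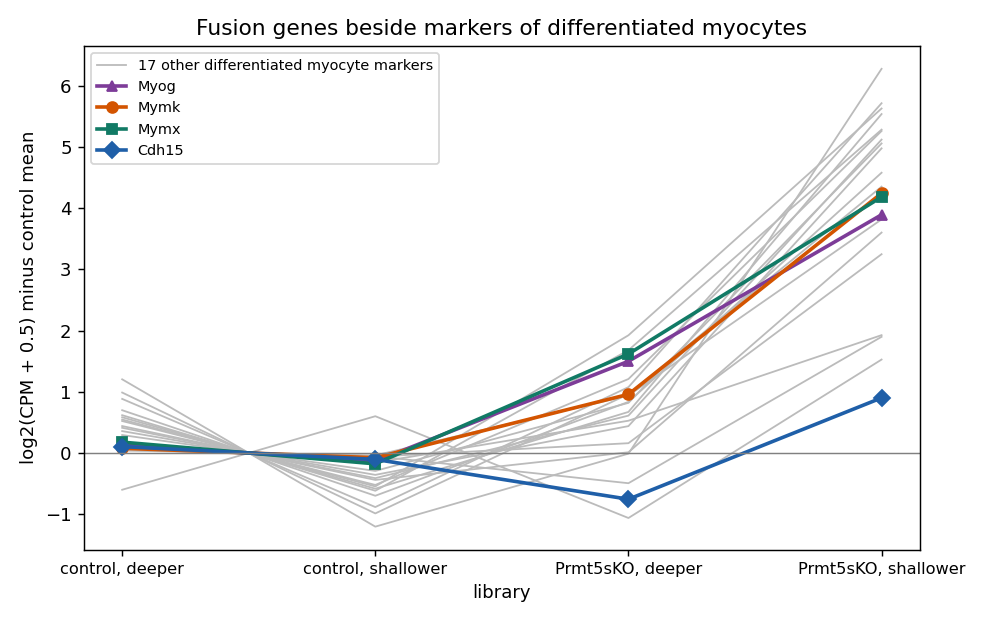
Profiles of Mymk, Mymx, Cdh15, Myog and 17 other differentiated myocyte markers (grey) over the 4 libraries, as log2(CPM + 0.5) minus the mean of the control libraries; lines join the values of a gene and stand for no order of the libraries. Mymk, Mymx and Myog lie above control in the deeper Prmt5sKO library and far above it in the shallower, while Cdh15 lies below control in the deeper and above it in the shallower.

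The genes with the profiles most like that of Mymk, by Euclidean distance between centred log2(CPM + 0.5) values over the 4 libraries, were Ckmt2 (distance 0.26), Pdlim3 (0.26), Mstn (0.27), Actn2 (0.31) and Myot (0.36). Pdlim3, for example, had 10.4 and 9.97 CPM in control and 16.3 and 200 CPM in Prmt5sKO. The nearest profiles to Mymx were Myog (0.25), Trim63 (0.30), Cav3 (0.30) and Slc24a4 (0.41). Trim63 had 1.12 and 0.72 CPM in control and 3.35 and 19.4 CPM in Prmt5sKO. Mymx and Mymk were 0.61 apart, which made Mymx the gene at rank 32 from Mymk and Mymk the gene at rank 18 from Mymx. With 4 libraries such distances describe a likeness and carry no test.

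Cdh15 and Cdh2 encode cadherins, calcium-dependent adhesion molecules, and Cdh15 varied more than Cdh2 between the Prmt5sKO libraries. Cdh15 (ENSMUSG00000031962, chromosome 8, 122847966 to 122867397, plus strand) encodes M-cadherin, the cadherin of satellite cells and myoblasts. It had 165 and 143 CPM in control, 90.9 CPM in the deeper Prmt5sKO library and 288 CPM in the shallower. The deeper Prmt5sKO library lay at 0.59-fold of the control mean and the shallower at 1.86-fold, so the 2 knockout libraries bracketed both controls. The shallower held 3.16-fold more than the deeper, and this log2 difference, taken with its sign, was above that of 96.1% of the genes tested. The fitted log2 fold change was 0.08 (standard error 0.52, 95% interval -1.18 to 1.34, adjusted p = 0.961 in limma-voom), and its sign rested on single libraries, since it was -0.76 without the shallower Prmt5sKO library, -0.0097 without the shallower control library and 0.90 without the deeper Prmt5sKO library. Against Myog, Cdh15 CPM stood at 1.86 and 1.94 times the level in control and at 0.40 (deeper) and 0.24 (shallower) times in Prmt5sKO, so its ratio to Myog was lower in both.

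Cdh2 (ENSMUSG00000024304, chromosome 18, 16588877 to 16809246, minus strand) encodes N-cadherin, the more widely expressed partner of M-cadherin in myoblasts. Its levels were 287 and 272 CPM in control and 250 and 342 CPM in Prmt5sKO, with the deeper Prmt5sKO library lowest and the shallower highest, as for Cdh15 but over a 1.37-fold range between the knockout libraries. The log2 fold change was 0.07 (standard error 0.23, 95% interval -0.50 to 0.64, adjusted p = 0.915 in limma-voom) and -0.16 without the shallower Prmt5sKO library. Per kb, the ratio of Cdh15 to Cdh2 was 1.43 and 1.30 in control, against 0.90 (deeper) and 2.09 (shallower) in Prmt5sKO.

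The receptors Cdon, Boc and Neo1 had levels close to control in the deeper Prmt5sKO library. Cdon (ENSMUSG00000038119, chromosome 9, 35421128 to 35507652, plus strand), an Ig and fibronectin repeat receptor that joins cadherins at myoblast contacts and also binds hedgehog ligands, had 1077 and 964 CPM in control and 1006 and 997 CPM in Prmt5sKO. Both knockout values fell between the controls. The log2 fold change was -0.02 (standard error 0.21, 95% interval -0.53 to 0.48, adjusted p = 0.969 in limma-voom), 0.042 without the deeper control library and 0.081 with scaling by library size alone, where the median of all genes was 0.13.

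Boc (ENSMUSG00000022687, chromosome 16, 44485049 to 44558897, minus strand), the paralogue and partner of Cdon, was lowest in the shallower Prmt5sKO library. It had 34.8 and 32.6 CPM in control, and in Prmt5sKO 35.9 CPM (deeper) and 22.0 CPM (shallower). The log2 fold change was -0.24 (standard error 0.30, 95% interval -0.98 to 0.50, adjusted p = 0.748 in limma-voom) and 0.09 without the shallower Prmt5sKO library. Neo1 (ENSMUSG00000032340, chromosome 9, 58874687 to 59036441, minus strand), neogenin, a receptor for netrins and repulsive guidance molecules that works with Cdon, had 151 and 201 CPM in control and 171 and 104 CPM in Prmt5sKO. Here too the shallower Prmt5sKO library was lowest and the deeper lay between the controls. The log2 fold change of Neo1 was -0.39 (standard error 0.30, 95% interval -1.13 to 0.35, adjusted p = 0.601 in limma-voom) and -0.03 without the shallower Prmt5sKO library.

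Per kb of exon, Boc stood at 5.60% and 5.86% of Cdon in control, and at 6.18% (deeper) and 3.83% (shallower) in Prmt5sKO. Neo1 stood at 12.4% and 18.5% of Cdon in control and at 15.03% and 9.26% in Prmt5sKO. Cdon was thus the most abundant of these receptors in every library, and both partners were lowest against it in the library with the highest myocyte markers.

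Jam3 (ENSMUSG00000031990, chromosome 9, 27097384 to 27155421, minus strand), a junctional adhesion molecule of the Ig superfamily, was the third gene whose groups did not overlap. It had 49.0 and 60.8 CPM in control and 70.4 and 92.2 CPM in Prmt5sKO, with means of 54.9 ± 8.36 and 81.3 ± 15.4 CPM (SD, n = 2 each). The log2 fold change was 0.56 (standard error 0.25, 95% interval -0.04 to 1.16, adjusted p = 0.397 in limma-voom), and leaving out a library kept it between 0.37 and 0.76. The antisense gene Gm48796 overlaps Jam3 exons, and without a stated strand setting the reads of both cannot be told apart.

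Myof (ENSMUSG00000048612, chromosome 19, 37899036 to 38043577, minus strand) encodes myoferlin, a calcium-sensing ferlin of the plasma membrane with a role in fusion of myoblasts to myotubes. It had 1007 and 785 CPM in control and 926 and 775 CPM in Prmt5sKO, so both groups held a higher deeper and a lower shallower library. The log2 fold change was -0.07 (standard error 0.24, 95% interval -0.65 to 0.51, adjusted p = 0.913 in limma-voom), with values from -0.25 to 0.09 when libraries were left out.

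**Figure D3:**
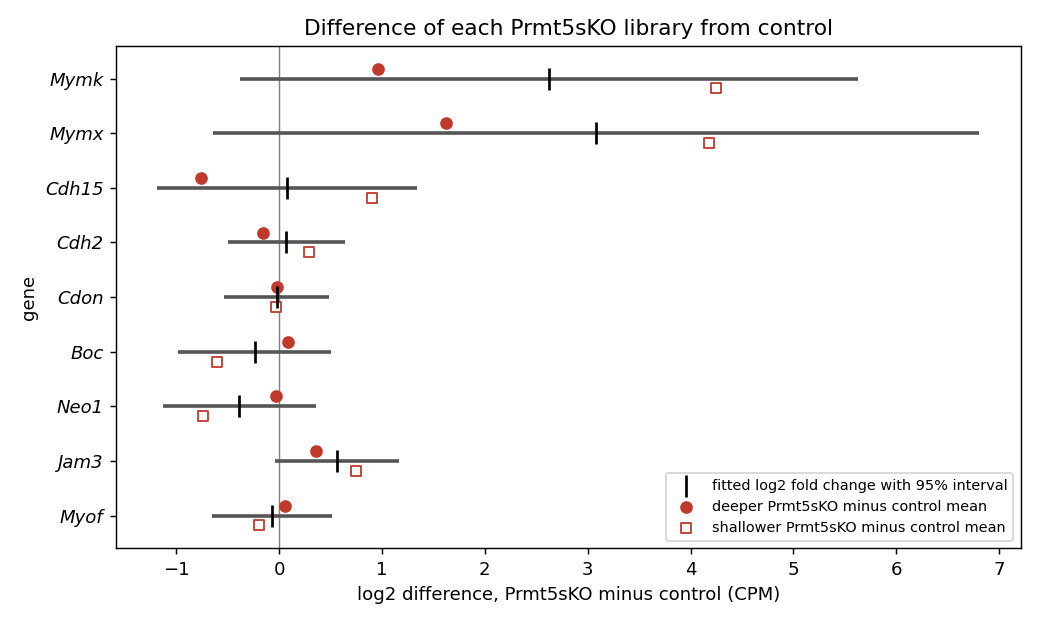
Log2 difference in CPM between Prmt5sKO and control for each gene: the fitted log2 fold change (black tick) with its 95% interval (bar), and the deeper (filled circle) and shallower (open square) Prmt5sKO library minus the control mean. All 9 intervals include 0, and those of Mymk and Mymx are the widest, from -0.38 to 5.62 and from -0.64 to 6.81.

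The order of the levels, compared between genes as CPM per kb of exon, differed between libraries. In control the means were 132 ± 10.4 for Cdon, 71.1 ± 12.5 for Myof, 47.4 ± 4.88 for Cdh15, 34.7 ± 1.28 for Cdh2, 20.2 ± 4.07 for Neo1, 17.2 ± 2.61 for Jam3, 10.6 ± 0.828 for Mymk, 7.57 ± 0.359 for Boc and 1.41 ± 0.327 for Mymx (CPM per kb, SD, n = 2). Neo1 and Jam3 were the only neighbours in that order whose libraries overlapped. In the deeper Prmt5sKO library Mymk reached 20.8 and Mymx 5.28 CPM per kb, with Cdon at 130 CPM per kb still highest and Mymx still lowest. In the shallower Prmt5sKO library Mymk, at 206 CPM per kb, was above Cdon at 129 CPM per kb, and Mymx, at 33.6 CPM per kb, was above Jam3, Neo1 and Boc. Parts of this order depend on the length used. With the longest annotated transcript in place of the exon union, Cdh2 stood at 57.8 and Cdh15 at 47.4 CPM per kb in control, Jam3 at 28.3 and Neo1 at 23.9, and the control libraries of Cdon and Myof overlapped. In the shallower Prmt5sKO library Mymx, at 42.95 CPM per kb by that length, was below Jam3 at 47.5, while Mymk at 225 CPM per kb was still above Cdon at 133.

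Other genes of adhesion and fusion were grouped by role. Of 9 other cadherins and catenins tested, 0 were higher and 1 was lower at an unadjusted p under 0.05, where 6.01% of all genes were higher and 6.95% lower. That gene was Cdh6, a type II cadherin, with 17.8 and 14.5 CPM in control and 9.78 and 4.68 CPM in Prmt5sKO (log2 fold change -1.20, adjusted p = 0.346 in limma-voom). The catenins Ctnnb1, Ctnna1 and Ctnnd1, which tie cadherins to actin and to signalling, differed by -0.20, 0.20 and 0.10 on the log2 scale.

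Of 20 other adhesion receptors tested, 4 were higher and 1 was lower at an unadjusted p under 0.05, and the median log2 fold change was 0.28. Over all genes tested, 6.01% were higher and 6.95% lower, and the median was 0.02. Cd81, a tetraspanin that acts in myoblast fusion, had 266 and 166 CPM in control and 540 and 450 CPM in Prmt5sKO (log2 fold change 1.23, adjusted p = 0.256 in limma-voom). Itga4, an integrin subunit that binds Vcam1, had 12.9 and 4.02 CPM in control and 17.3 and 31.2 CPM in Prmt5sKO (log2 fold change 1.61, adjusted p = 0.355 in limma-voom). For Cd81 the deeper Prmt5sKO library was the higher one, unlike for Mymk and Mymx. The other 3 were Cd9, Ncam1 and Kirrel, with log2 fold changes of 0.85, 0.65 and -0.73, all below a 2-fold change.

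Of 14 ligands and partners of Cdon, Boc and Neo1 tested, 1 was higher and 4 were lower at an unadjusted p under 0.05, and the median was -0.11. The shares over all genes tested were 6.01% higher and 6.95% lower, with a median of 0.02. Gli1, a transcription factor and target of hedgehog signalling, had 2.80 and 4.26 CPM in control and 9.37 and 7.48 CPM in Prmt5sKO (log2 fold change 1.30, adjusted p = 0.335 in limma-voom). Gli2, its relative upstream in the pathway, had 7.28 and 9.73 CPM in control and 3.21 and 4.24 CPM in Prmt5sKO (log2 fold change -1.20, adjusted p = 0.346 in limma-voom). The other 3 that were lower were the hedgehog receptor Ptch1, the netrin Ntn4 and the kinase Abl1, which binds Cdon, with log2 fold changes of -0.92, -0.76 and -0.67. Members of the hedgehog pathway thus lay on both sides, and none was called. Hhip and Gli3 (log2 fold changes -1.21 and -0.49) were also lower in both Prmt5sKO libraries, while Gas1 (0.73) overlapped. Both Prmt5sKO libraries lay below both controls for 6 of the 14 and above for 3, where this held for 23.6% and 25.2% of all genes tested.

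Of 12 other ferlins and membrane remodelling proteins tested, 0 had an unadjusted p under 0.05. The groups of 3 of the 12 did not overlap, all higher in Prmt5sKO, where this held for 25.2% of all genes tested. The median of the 12 was 0.32, beside 0.02 for all genes tested, and their log2 fold changes ran from -0.29 to 3.18. The highest was that of Trim72, with 9.04 and 2.65 CPM in control and 12.8 and 185 CPM in Prmt5sKO. Cav3 (log2 fold change 2.71) was also far higher in the shallower Prmt5sKO library, as were Mymk and Mymx. Of 25 actin regulators of fusion tested, 0 had an unadjusted p under 0.05, with a median of 0.06. In 12 secreted signals and transcription factors of fusion tested, 2 were higher and 0 lower at an unadjusted p under 0.05, with a median of 0.94. The shares over all genes tested were 6.01% higher and 6.95% lower. Fst, the secreted myostatin antagonist follistatin, had 15.4 and 2.89 CPM in control and 35.5 and 80.1 CPM in Prmt5sKO (log2 fold change 2.91, adjusted p = 0.284 in limma-voom). Nfatc2, a transcription factor of myotube growth, had 0.35 and 1.45 CPM in control and 3.72 and 4.24 CPM in Prmt5sKO (log2 fold change 2.44, adjusted p = 0.324 in limma-voom), from as few as 5 counts in a control library.

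**Figure D4:**
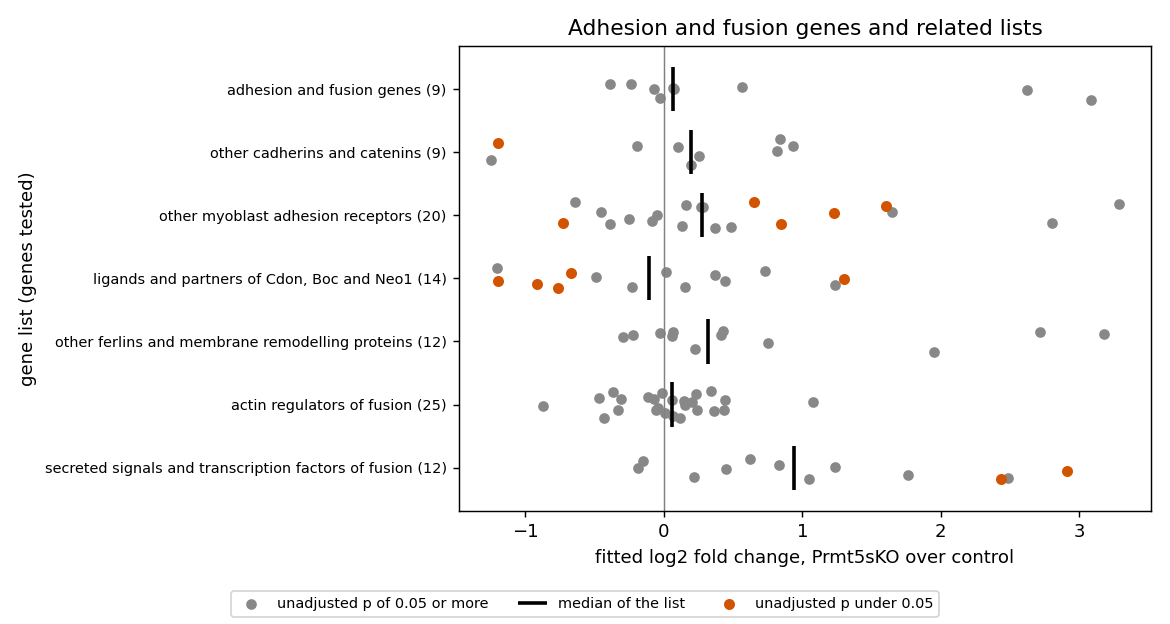
Fitted log2 fold change of Prmt5sKO over control for the 9 adhesion and fusion genes and for 6 related lists, with 1 point for each gene tested, genes with an unadjusted p under 0.05 in orange, and the median of a list as a black bar; points are spread vertically for sight only. Mymk and Mymx stand apart to the right of the other 7 adhesion and fusion genes, whose values lie between -0.39 and 0.56.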

How the data were processed

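RNA from cultured MuSC was depleted of ribosomal RNA and sequenced on the Ion Torrent Proton platform. The authors trimmed the reads, aligned them with STAR 2.4.0a (per the submitters' processing notes) to the GRCm38 build, assigned them to genes and scaled the counts with DESeq2 size factors. The signal values of the deposited table are means made by the authors from these scaled counts, over the 2 libraries of each group and over all 4. The log2 fold changes and the p-values in the deposited table are the authors' own comparison and were not used. The strand setting of the counting is not given in the sources used here.

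Because a group mean adds whole multiples of 1 step from each library, the read counts behind it could be solved for, and this succeeded for 100% of the 20065 genes in both groups, with a largest relative residual of 5.9e-15. Replicate numbers are absent from the columns, and libraries are called deeper or shallower instead. Symbols came from GENCODE M21, which held 19782 of the identifiers. Counts were scaled by TMM (own code, trims of 30% and 5%), genes whose mean normalised count reached 5 entered the test, done by the voom method of limma 3.58.1 in R 4.3.3 with Benjamini-Hochberg adjustment. A call needed both an adjusted p no larger than 0.05 and a 2-fold change. The recovery and the test were tested on simulated data. CPM per kb used the union of annotated exons. Differences between single libraries are of log2(CPM + 0.5). The genes named are the 9 adhesion and fusion genes, Prmt5, Xist, Myog, Myod1 and Pax7, the 5 genes with the smallest Euclidean distance to the profile of Mymk and of Mymx, and, of each related list, at most 5 genes with an unadjusted p under 0.05 and at least a 2-fold change, those with the highest mean count. Of the genes near Mymx, 1 is not reported here. Marker genes of other cell types and further genes of the lists that are named with their values were chosen after their values were seen. The alternatives were other scalings, other filters, limma-trend, leaving out each library, pairing of libraries and another gene length. The 9 genes and all lists were chosen with earlier results of these data known.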

Additional observations from a re-analysis of the deposited data

How the results depend on the processing

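Between 0 and 489 genes were called when each library was left out in turn, with 489 without the deeper Prmt5sKO library, 55 without the shallower Prmt5sKO library and 0 without either control library; these fits assume that the lone library of a group varies like the libraries of the other group. Without the deeper Prmt5sKO library Mymk (4.28, adjusted p = 0.0011 in limma-voom) and Mymx (4.55, adjusted p = 0.0073 in limma-voom) were called. Leaving out libraries gave log2 fold changes of 0.97 to 4.28 for Mymk, 1.88 to 4.55 for Mymx, -0.76 to 0.90 for Cdh15 (-0.0097 without the shallower control library), -0.16 to 0.29 for Cdh2, -0.098 to 0.042 for Cdon, -0.61 to 0.089 for Boc, -0.74 to -0.03 for Neo1, 0.37 to 0.76 for Jam3 and -0.25 to 0.093 for Myof (0.059 without the shallower Prmt5sKO library). The sign thus changed for Cdh15, Cdh2, Cdon, Boc and Myof, and the cause was not tested. Scaling by library size alone moved the median over all genes from 0.02 to 0.13 and turned Cdon to 0.081 and Myof to 0.035, both below that median. All scalings, both other filters and limma-trend called 0 genes, with 1906 to 2413 genes at an unadjusted p under 0.05, and apart from scaling by library size alone they changed the sign of no adhesion or fusion gene.

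A replicate block that paired the deeper libraries with each other called 0 genes, gave Mymk 3.0 (unadjusted p = 0.0077, adjusted p = 0.318 in limma-voom) and Mymx 3.56 (unadjusted p = 0.0064, adjusted p = 0.316 in limma-voom), and changed no call. The crossed replicate block, chosen after seeing the data, called 346 genes, among them 2 of the 9, Mymk and Mymx. It joins the libraries with like Xist levels, 537 with 351 CPM and 1.45 with 0.51 CPM, and its part in the calls was not tested. The deviations of the deeper libraries from their group means correlated at -0.28 between the groups across 11487 genes, and nothing in the labels or columns pairs the libraries. With the longest annotated transcript as the length, the control levels of Mymk, Mymx, Cdh2, Jam3 and Myof moved by more than 1 SD, to 11.6, 1.80, 57.8, 28.3 and 126 CPM per kb. With 2 libraries per group, an exact two-sided permutation test could not give a p below 0.333.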
